A study of Mus musculus with 7 samples.

Results

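Adhesion G protein-coupled receptors are cell-surface receptors that combine a bundle of membrane-spanning helices with a very long extracellular region made of adhesion modules. Next to the membrane, most carry a fold that cuts its own chain, and the stretch exposed at the cut can act as a tethered agonist, so that binding to a neighbouring cell or to matrix can be turned into signalling through G proteins. Most of their mouse symbols begin with Adgr, followed by a letter for the subfamily. The question examined here was where these genes lie relative to lamin-associated domains (LADs), the long stretches of chromatin that contact the nuclear lamina under the nuclear envelope and that are generally poor in active genes.

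All protein-coding genes of the mm10 RefSeq table whose symbol starts with Adgr were taken, which gave 27 of the 21887 protein-coding genes on chromosomes of the deposited list. The rule uses the symbol alone, but the family was picked for description with earlier results of these data known. The cells were mouse embryonic fibroblast lines (iMEF), described in the design text as independently derived within a single mouse colony. The series holds 7 CUT&RUN libraries, of which 2 target Lamin B1, 2 are IgG controls, 2 target H3K9me2 with different antibodies and 1 targets H3K14ac. In CUT&RUN an antibody recruits a nuclease that releases the DNA around its target. The LADs come from a single deposited list with 1437 domains. That it describes wild-type cells and is merged is stated only in its name, and the labels used here name no allele, treatment or age. The histone libraries were not analysed here. No value of a single library was used, so read depth is unknown, no position has a replicate error and no test between groups was possible. Expression was not measured, so the identity of the cells could not be checked against marker RNA. Of 6 genes typical of fibroblasts (Col1a1, Col1a2, Col3a1, Thy1, Pdgfra and Pdgfrb), 0 had their midpoint in a LAD, beside 23.8% of all protein-coding genes, and with so few genes this says nothing of the cells' identity.

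Adhesion receptor genes were found on both sides of LAD borders. A gene was counted as inside when its midpoint lay in a LAD. That was so for 10 of the 27 members (37.0%), against 23.8% of all protein-coding genes. With LADs of at least 500 kb only, 4 of the 27 members remained inside, a smaller share than the 20.7% of all protein-coding genes. The higher share of members therefore depended on shorter LADs. The 10 were Adgra1, Adgrb3, Adgre1, Adgre4, Adgrf2, Adgrf4, Adgrg2, Adgrg4, Adgrl4 and Adgrv1. They came from 7 of the 8 subfamilies present (A, B, E, F, G, L and V), and the single D member was outside. In each of the subfamilies with more than 1 member, some genes were inside and others outside. Neighbouring members with no other protein-coding midpoint between them formed 5 of the 21 loci, and 9 loci held a member inside a LAD.

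The share of the gene covered separated the members further. Of the 27 genes, 6 lay wholly within a LAD (22.2%, against 21.8% of all protein-coding genes), 6 reached across at least 1 border and 15 did not touch a LAD. Crossing a border was seen in 22.2% of members and in 3.36% of all protein-coding genes. Any overlap was seen in 12 members (44.4%), against 25.1% of all protein-coding genes. Cover was 0% at the median of the members, as it was over all protein-coding genes.

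**Figure D1:**
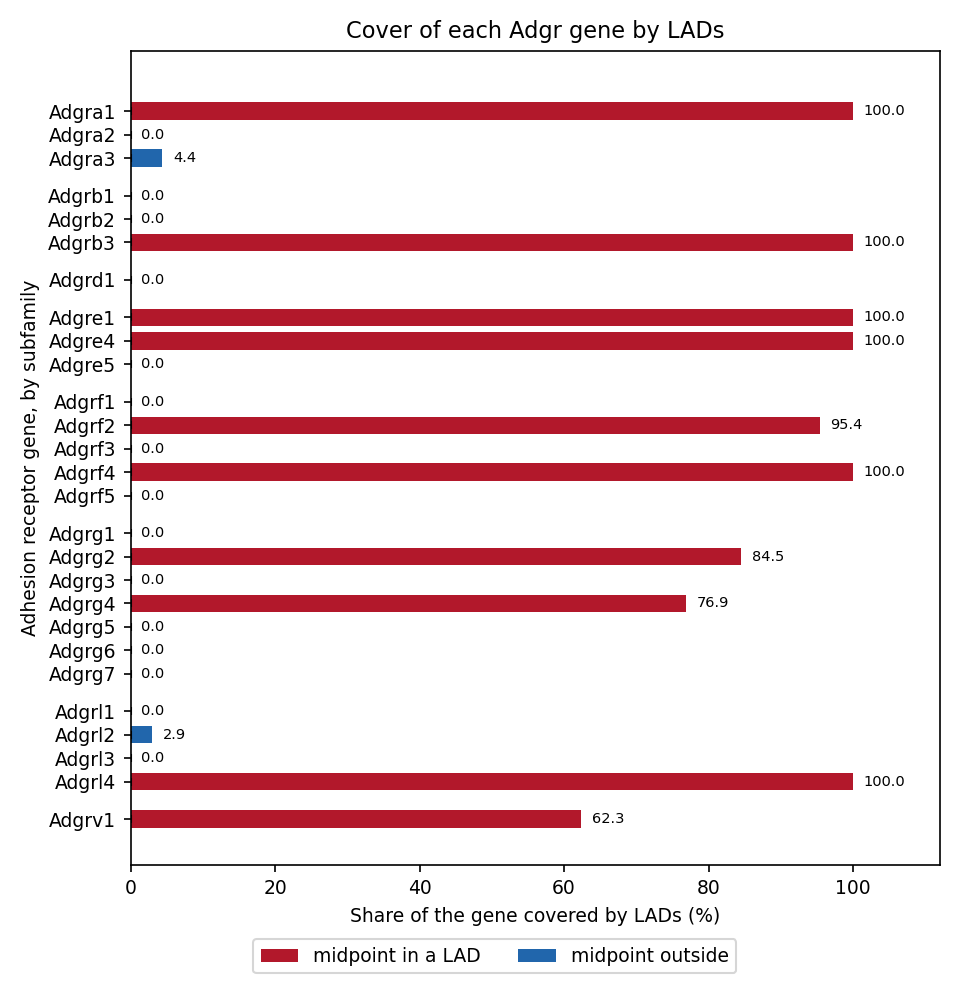
Share of each Adgr gene covered by LADs (percent of the gene's bases), grouped by subfamily, with red bars for genes whose midpoint lay in a LAD and blue bars for genes whose midpoint lay outside. The 10 red genes were covered to between 62.3% and 100%, and the 2 blue genes with any cover, Adgra3 and Adgrl2, to 4.38% and 2.91%.

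The members differed from all protein-coding genes in length, so the counts were also split by gene length. The members were long genes, with a median of 73.3 kb, and all protein-coding genes had a median of 17.2 kb. Members inside LADs had a median length of 105.4 kb (41.4 to 767.3 kb, n = 10), and members outside had a median of 55.6 kb (12.3 to 808.7 kb, n = 17), so the ranges overlapped. Among genes of at least 100 kb, 6 of 10 members were inside, against 33.8% of all genes of that length. Of those 10 members, 3 crossed a border (30.0%), against 16.5% of all genes of that length. From 20 to 100 kb, 4 of 15 members were inside, against 16.4%. Below 20 kb, 0 of 2 members (Adgre5 and Adgrf3) were inside, against 26.5%. The part of length in the counts was not tested.

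**Figure D2:**
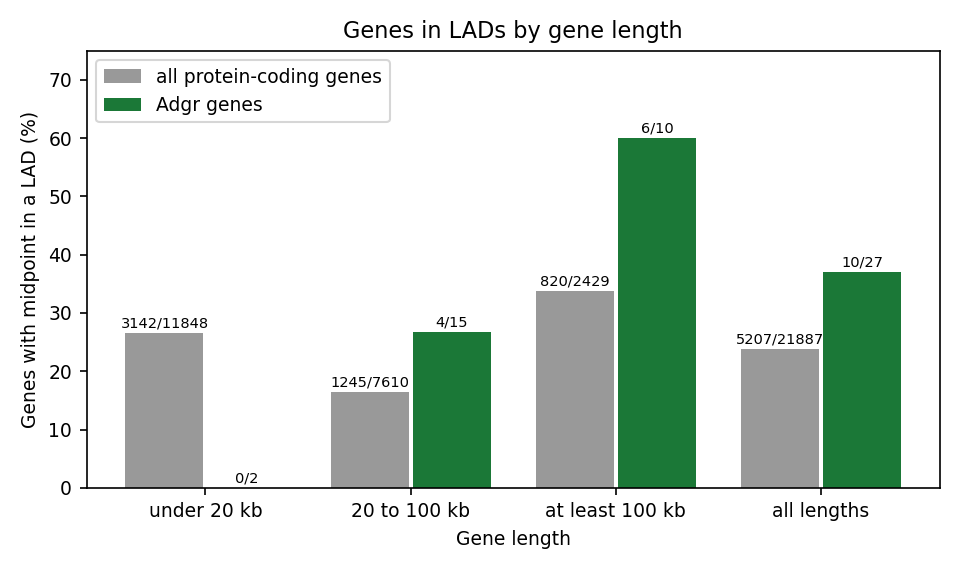
Percent of genes whose midpoint lay in a LAD, by gene length, for all protein-coding genes (grey) and Adgr genes (green), with the counts above the bars. In the class of at least 100 kb the grey bar stands at 33.8% and the green bar rests on 6 of 10 genes, and the other 2 length classes hold 2 and 15 Adgr genes.

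The E subfamily consists of receptors with EGF-like modules that are known mainly from leukocytes. Adgre1, which encodes the macrophage antigen F4/80, occupied chromosome 17 from 57358581 to 57483529 and lay wholly inside a LAD of 1625 kb (57348907 to 58973901). Its low-coordinate end was 9.67 kb from the border. The neighbouring gene across that border, Vav1, a signalling protein of blood cells, lay outside. Adgre4, another myeloid receptor, was found on the same chromosome (55749984 to 55853662) inside a different LAD of 2192 kb (53718919 to 55911411), with 57.7 kb between its nearer end and the border. In contrast, Adgre5, which encodes CD97, a receptor of many cell types that binds Cd55, lay on chromosome 8 (83723245 to 83741311), 665.3 kb from the nearest LAD. In all, 2 of the 3 E members were inside, beside 23.8% of all protein-coding genes. Of 4 other genes typical of macrophages, Ptprc was inside a LAD and 3 were outside, a share near the 23.8% of all protein-coding genes.

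In the A subfamily, the 3 genes showed a different relation to LADs each. Adgra2 (GPR124), a co-receptor with Reck for Wnt7 ligands in brain endothelium, had no cover, and its nearer end (chromosome 8, 27085520 to 27123436) was 284.7 kb from a border. Adgra1, a receptor known from brain, was wholly covered. It lay on chromosome 7 (139834097 to 139878088) in a LAD of 272.5 kb (139639686 to 139912184) that held 1 other gene midpoint, that of Cfap46.

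Adgra3 (GPR125), known from spermatogonial stem cells, showed its start and its body on different sides of a border. The gene occupied chromosome 5 from 49959951 to 50058996 on the minus strand, so its start is the high-coordinate end. This end reached 4.34 kb into a LAD of 1130 kb (50054654 to 51184650), and the remaining 94.7 kb lay in a gap of 127.5 kb (49927155 to 50054653) in which it was the only protein-coding gene. Both neighbouring genes, Kcnip4 and Ppargc1a, were inside LADs. For scale, the lengths of all (100%) domains of the list lie within 125 bp of a multiple of 2.5 kb.

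The B subfamily, formerly called BAI, includes receptors for apoptotic cells and for synaptic proteins of the C1q-like family. Adgrb3, the receptor for C1q-like proteins, was among the deepest members. It spans 767.3 kb of chromosome 1 (25067476 to 25834772) and lay wholly within a LAD of 6095 kb (24657423 to 30752403), with its midpoint 793.7 kb from the nearest border. Only 5 protein-coding genes had their midpoint in that LAD. Adgrb1, an engulfment receptor, and Adgrb2, a receptor of brain, were at the other extreme. They lay 2020 kb (Adgrb1, chromosome 15, 74516196 to 74589465) and 1195 kb (Adgrb2, chromosome 4, 129984773 to 130022633) from the nearest LAD, in gaps that held 300 and 53 protein-coding genes. Among the 15 members without overlap, only Adgrg6 lay farther from a border than these 2.

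The L subfamily holds the latrophilins Adgrl1, Adgrl2 and Adgrl3, synaptic receptors that bind teneurins and FLRT proteins, and Adgrl4 (ELTD1), known from endothelium. Adgrl1 (chromosome 8, 83900098 to 83941954) was 842.2 kb from a LAD and neighboured Adgre5 in the same gap of 5760 kb. Adgrl3, the longest member with 808.7 kb, lay outside LADs over its whole length (chromosome 5, 81019085 to 81827825). It was the only protein-coding gene with its midpoint in a gap of 2007 kb (79924560 to 81932052), and the LADs at its sides measured 90.0 and 85.0 kb. Its nearer end was 104.2 kb from a border.

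Adgrl2 and Adgrl4 are neighbours on chromosome 3 with no protein-coding gene between them, and they differed. Adgrl2 (148815586 to 148989096, minus strand) filled most of a gap of 180.0 kb between LADs of 960.0 kb and 2875 kb. Its last 5.05 kb lay in the lower LAD, and its other end was 11.5 kb short of the higher one. The start site of its RefSeq window was 46.0 kb from a border. Adgrl4 (151437882 to 151545081) lay wholly in that higher LAD (149000639 to 151875629), with its midpoint 384.1 kb from a border. Joining LADs separated by at most 250 kb placed Adgrl2 and Adgra3 inside. Of 4 other genes typical of endothelium, Tek was inside a LAD and 3 were outside, which is again near the 23.8% of all protein-coding genes.

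Adgrv1, the only V member, encodes a very large receptor of the links between stereocilia in hair cells. It spans 538.3 kb of chromosome 13 (81095068 to 81633391) and was crossed by 5 borders. The low-coordinate part lay for 25.5 kb in a LAD of 92.5 kb (81028086 to 81120584). A LAD of 167.5 kb (81218085 to 81385584) and a LAD of 142.5 kb (81488084 to 81630583) lay wholly within the gene. Together they covered 62.3% of it and left 202.8 kb uncovered. Overlap with 3 or more LADs was found in 10 of the 21887 protein-coding genes (0.0457%), of which Adgrv1 was 1, a property looked up after its positions had been seen. The high-coordinate end of Adgrv1, where the gene begins, lay 2.81 kb beyond the last LAD, and the start site of its RefSeq window lay 2.56 kb beyond it.

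The G subfamily has members on the X chromosome and on autosomes. Adgrg2 (GPR64), known from the epididymis, and Adgrg4 (GPR112), known from gut endocrine cells, are its members on X, and both were inside LADs, beside 35.8% of all protein-coding genes on X. Adgrg2 (160390318 to 160498076) was covered to 84.5% by a LAD of 277.5 kb (160203823 to 160481321), with its start inside and its last 16.8 kb outside. For Adgrg4 (56894234 to 56980359) the order was reversed. Its first 19.9 kb lay outside, and the remaining 76.9% lay in a LAD of 67.5 kb (56914150 to 56981649) that ended 1.29 kb beyond the gene, so that 98.1% of this LAD was Adgrg4. Each was the only protein-coding gene with its midpoint in its LAD. Adgrg4 was no longer inside when LADs under 100 kb were left out.

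The 5 autosomal G genes had no cover, and so no midpoint in a LAD. By the midpoint rule 22.8% of all autosomal protein-coding genes were inside. Adgrg5 and Adgrg3, known from leukocytes, and Adgrg1 (GPR56, a collagen receptor of developing cortex and of glia) lie side by side on chromosome 8 (94921811 to 95045250), between 940.2 and 1042 kb from the nearest LAD. The gap around them measured 2187 kb and held 49 genes. Adgrg7 (chromosome 16, 56724609 to 56796006) was 292.6 kb from a border. Adgrg6 (GPR126), which Schwann cells need for myelination, was the farthest of all members at 2434 kb (chromosome 10, 14402583 to 14545723).

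The F subfamily was divided within a single stretch of chromosome 17. Adgrf4 (42656208 to 42697569) and Adgrf2 (42694028 to 42743753) overlap each other and shared a LAD of 92.5 kb (42648954 to 42741453) in which they were the only genes by midpoint. Adgrf4 was wholly covered. Adgrf2, whose strand was not used here, was covered to 95.4%, with 2.30 kb at its high-coordinate end outside. Both lost their LAD when domains under 100 kb were left out. A LAD of 165.0 kb (43038953 to 43203951) separated this pair from Adgrf1 (43270283 to 43325876), at 66.3 kb from its border, and Adgrf5 (43360329 to 43459557), at 156.4 kb. Adgrf1 (GPR110) is a receptor for synaptamide in developing neurons, Adgrf5 (GPR116) controls surfactant in the lung, and neither gene touched a LAD. Adgrf3, the short member of 12.3 kb on chromosome 5 (30193431 to 30205754), was 1001 kb away.

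Adgrd1 (GPR133), a receptor that raises cyclic AMP, lay outside but close to a border. It occupied chromosome 5 from 129096750 to 129204599, and its high-coordinate end was 4.80 kb from a LAD of 95.0 kb. It shared a gap of 295.0 kb with Stx2 and Ran.

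**Figure D3:**
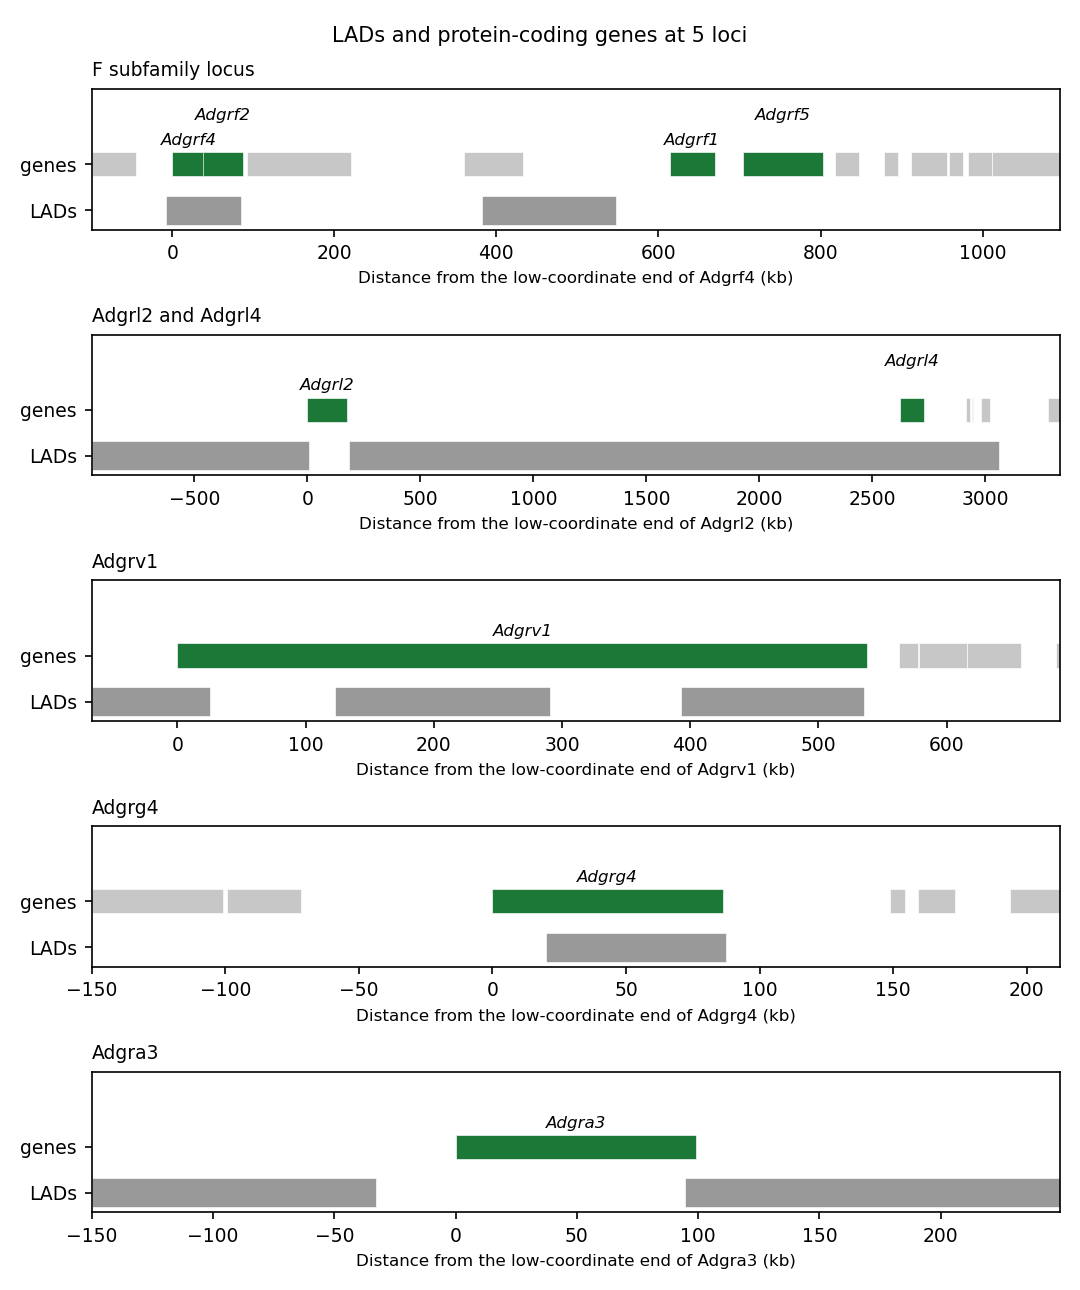
LADs (grey, lower row), Adgr genes (green) and other protein-coding genes (light grey, upper row) at 5 loci, along the distance in kb from the low-coordinate end of the named gene. Adgrf4 and Adgrf2 lie over 1 LAD of 92.5 kb, Adgrl2 fills the gap before the LAD of Adgrl4, Adgrv1 lies over 3 LADs, Adgrg4 matches a LAD of 67.5 kb except for its first 19.9 kb, and the high-coordinate end of Adgra3 reaches 4.34 kb into a LAD.

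Many members had an end near a border. The nearer end lay within 10 kb of a border in 8 of 27 members (29.6%), against 2.65% of all protein-coding genes. These were Adgra3, Adgrd1, Adgre1, Adgrf2, Adgrf4, Adgrg4, Adgrl2 and Adgrv1. Adgrf2 and Adgrf4 lie on the same LAD, though at opposite borders. Within 5 kb there were 5 members, against 1.38% of all genes, and within 25 kb there were 9, against 5.89%. The distances were chosen after the values had been seen, and no test was made.

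The domains around the members varied widely in length. The 9 LADs that held a member's midpoint ran from 67.5 to 6095 kb with a median of 277.5 kb, where all 1437 LADs had a median of 445.0 kb. Counted once per gene, the LAD around the 10 members inside had a median length of 275.0 kb, and the LAD around all protein-coding genes in LADs one of 1785 kb. The 4 inside LADs of over 1 Mb were Adgrb3, Adgre1, Adgre4 and Adgrl4, and the other 6 members were in LADs of at most 277.5 kb. The members in LADs had a median distance from midpoint to border of 46.6 kb, and those of all protein-coding genes in LADs lay 307.7 kb away at the median. Outside LADs the medians were 674.3 kb for members and 796.3 kb for all protein-coding genes. Among the 10 members inside, 3 were the only midpoint of their LAD (Adgrg2, Adgrg4 and Adgrv1), against 6.74% of all genes in LADs. Among the 17 outside, 3 were alone in their gap (Adgra3, Adgrl2 and Adgrl3), against 1.69% of all genes outside LADs. The nearest protein-coding neighbour on each side, by midpoint, was also placed, leaving out neighbours that were Adgr genes themselves. The shares over all protein-coding genes keep every neighbour, also those of the same family, so the 2 counts are not quite alike. Beside members in LADs, 7 of 17 neighbours were inside, against 84.5% of the neighbours of all protein-coding genes in LADs. Beside members outside, 4 of 25 neighbours were inside, against 4.82% for all protein-coding genes outside. These shares were computed after the members' counts had been seen, and no test was made.

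**Figure D4:**
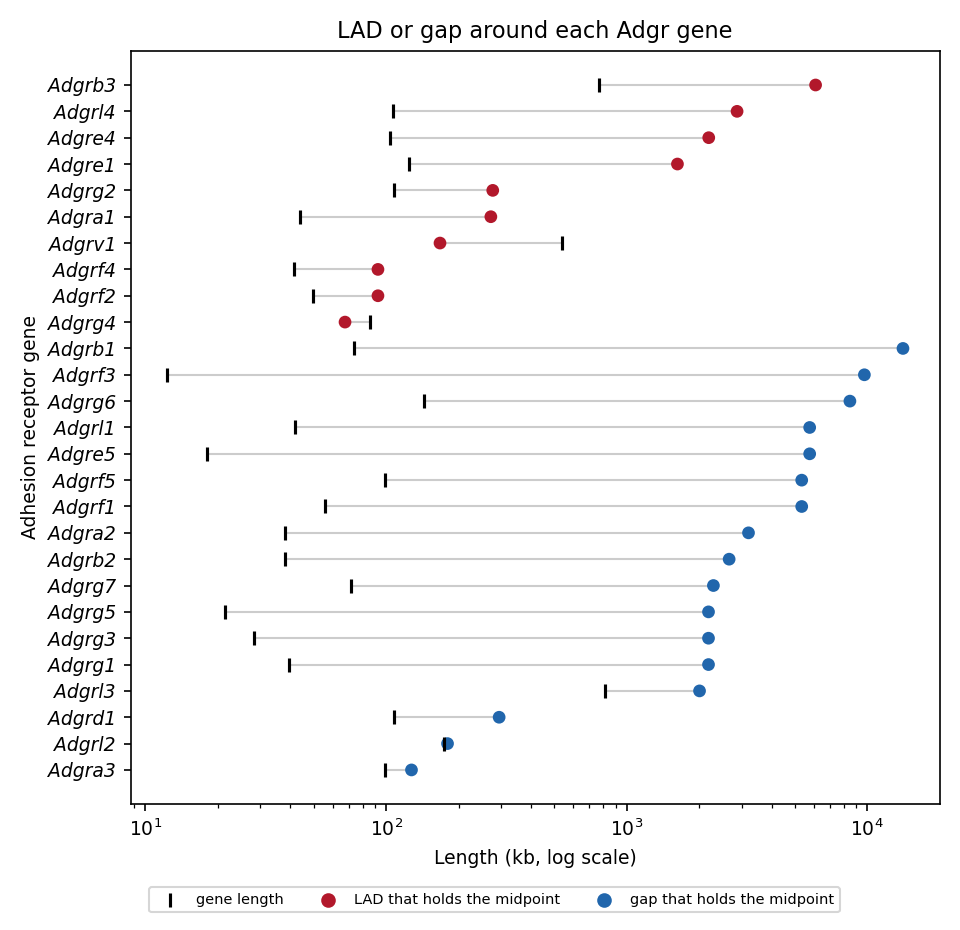
Length in kb (log scale) of the LAD (red) or gap (blue) that held the midpoint of each Adgr gene, with a black tick at the length of the gene itself. Adgrg4 and Adgrv1 are longer than the LAD that holds their midpoint, and Adgrl2, of 173.5 kb, nearly fills its gap of 180.0 kb.

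The start of a gene is where transcription begins, so its position was examined separately. RefSeq start windows (GRCm38.p6, from 250 bases before to 50 bases after the start) were matched for 20 of the 27 members. Adgra2, Adgrb1, Adgrd1, Adgre1, Adgre5, Adgrf2 and Adgrf3 had no entry. Where a gene had several windows, the outermost was used. The start lay in a LAD in 7 of 20 members (35.0%), against 23.9% of all protein-coding genes with a window. The 7 were Adgra1, Adgra3, Adgrb3, Adgre4, Adgrf4, Adgrg2 and Adgrl4. Start and midpoint were on different sides of a border in 3 members (15.0%), Adgra3, Adgrg4 and Adgrv1, and in 1.52% of all genes with a window. These 3 genes are 99.0, 86.1 and 538.3 kb long, where all protein-coding genes had a median of 17.2 kb. A share for genes of like length is not given here, and the part of length was not tested. The start of Adgrv1 was only 2.56 kb from the border.

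The start windows inside LADs fell into CpG-rich and CpG-poor ones. The windows below are shown for that contrast and are written 5′ to 3′ on the gene's strand, with each CpG dinucleotide in capitals. The first 3 are CpG-rich windows in LADs. The start in the window of Adgrb3 (chr1:25829658-25829957, minus strand) is the deepest of them, at 1172 kb from a border. The start of Adgrg2 (chrX:160390440-160390739, plus strand) lies at 90.6 kb. The start of Adgra3 (chr5:50058947-50059246, minus strand) lies at 4.34 kb.
Adgrb3: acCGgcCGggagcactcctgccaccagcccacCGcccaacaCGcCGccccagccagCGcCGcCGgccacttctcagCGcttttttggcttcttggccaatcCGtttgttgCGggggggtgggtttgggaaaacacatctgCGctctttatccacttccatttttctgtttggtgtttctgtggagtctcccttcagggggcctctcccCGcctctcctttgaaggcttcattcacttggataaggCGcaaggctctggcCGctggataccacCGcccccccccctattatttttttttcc
Adgrg2: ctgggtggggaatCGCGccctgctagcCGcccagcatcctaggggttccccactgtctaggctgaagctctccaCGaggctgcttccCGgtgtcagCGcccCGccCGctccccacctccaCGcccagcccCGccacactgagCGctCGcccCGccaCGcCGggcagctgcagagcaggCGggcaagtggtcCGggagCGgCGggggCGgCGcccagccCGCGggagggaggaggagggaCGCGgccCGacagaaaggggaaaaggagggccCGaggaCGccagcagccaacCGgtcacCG
Adgra3: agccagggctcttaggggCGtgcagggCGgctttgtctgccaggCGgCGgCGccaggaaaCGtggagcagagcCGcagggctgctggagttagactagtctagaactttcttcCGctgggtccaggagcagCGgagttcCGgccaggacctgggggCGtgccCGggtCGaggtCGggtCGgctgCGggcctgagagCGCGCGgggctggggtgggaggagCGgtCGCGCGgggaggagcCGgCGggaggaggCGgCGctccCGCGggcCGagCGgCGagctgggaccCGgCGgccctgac

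The next windows also lie in LADs and hold few CpG dinucleotides. The start of Adgre4 (chr17:55749734-55750033, plus strand) was 161.4 kb from a border. The start of Adgrf4 (chr17:42692235-42692534, minus strand) was 43.3 kb from a border.
Adgre4: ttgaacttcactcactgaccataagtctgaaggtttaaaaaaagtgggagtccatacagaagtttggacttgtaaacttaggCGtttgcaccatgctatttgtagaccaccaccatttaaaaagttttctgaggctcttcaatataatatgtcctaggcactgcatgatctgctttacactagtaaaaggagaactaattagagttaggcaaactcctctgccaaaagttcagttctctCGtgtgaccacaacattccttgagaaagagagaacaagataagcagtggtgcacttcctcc
Adgrf4: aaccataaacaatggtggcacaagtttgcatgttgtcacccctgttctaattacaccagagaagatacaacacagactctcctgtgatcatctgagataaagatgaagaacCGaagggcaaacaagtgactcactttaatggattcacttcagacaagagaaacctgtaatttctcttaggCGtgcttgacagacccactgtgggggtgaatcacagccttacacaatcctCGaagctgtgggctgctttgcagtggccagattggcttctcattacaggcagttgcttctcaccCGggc

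The last pair belongs to the genes whose body lies largely in LADs while the start does not. The start of Adgrv1 (chr13:81633095-81633394, minus strand) was 2.56 kb outside a LAD by its RefSeq window. The start of Adgrg4 (chrX:56893984-56894283, plus strand) was 19.9 kb outside.
Adgrv1: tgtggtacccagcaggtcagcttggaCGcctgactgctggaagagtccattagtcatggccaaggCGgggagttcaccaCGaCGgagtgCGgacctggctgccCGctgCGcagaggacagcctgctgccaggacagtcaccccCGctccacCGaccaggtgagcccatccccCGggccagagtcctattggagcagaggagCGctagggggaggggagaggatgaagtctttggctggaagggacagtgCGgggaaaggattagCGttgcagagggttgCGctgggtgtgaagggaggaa
Adgrg4: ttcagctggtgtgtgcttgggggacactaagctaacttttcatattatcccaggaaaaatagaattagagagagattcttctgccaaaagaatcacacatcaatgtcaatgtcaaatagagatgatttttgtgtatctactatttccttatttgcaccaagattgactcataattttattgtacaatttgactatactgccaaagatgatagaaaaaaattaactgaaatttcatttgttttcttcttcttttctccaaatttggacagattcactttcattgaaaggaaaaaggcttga

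Counts of CpG dinucleotides per window of 300 bases were 16 in Adgrb3, 30 in Adgrg2 and 34 in Adgra3. Adgra1, also in a LAD, had 17. The CpG-poor windows in LADs held 2 in Adgre4, 4 in Adgrf4 and 8 in Adgrl4. For Adgrv1 the count was 14, and for Adgrg4 it was 0. The median over the 7 windows in LADs was 16, and over all 4180 protein-coding windows in LADs it was 2. Over the 13 member windows outside LADs the median was 7 (0 to 45), where all 13312 windows outside had a median of 17. The ranges of the members inside and outside overlapped.

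The ratio of observed to expected CpG, which corrects the count for base composition, was at least 0.6 in 4 of the 7 member windows in LADs, against 15.3% of all windows in LADs. These were Adgra1 (0.692), Adgra3 (0.889), Adgrb3 (0.638) and Adgrg2 (0.731). It was at least 0.6 in 4 of the 13 member windows outside, against 58.8% of all windows outside. These were Adgrb2 (0.902), Adgrg6 (1.08), Adgrl1 (0.766) and Adgrl3 (0.940). The other 9 windows outside had ratios from 0 (Adgrg4) to 0.487 (Adgrv1), and the neighbours Adgrg1, Adgrg3 and Adgrg5 held 7 CpG dinucleotides each. The letters TATAAA or their reverse complement TTTATA occurred in 1 of the 20 windows, that of Adgrl2, and in 13.3% of all protein-coding windows. The letters GGGCGG or their reverse complement CCGCCC occurred in 11 of 20 and in 46.3% of all protein-coding windows. Both strands were searched for presence, and a match is only a description of the letters.

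**Figure D5:**
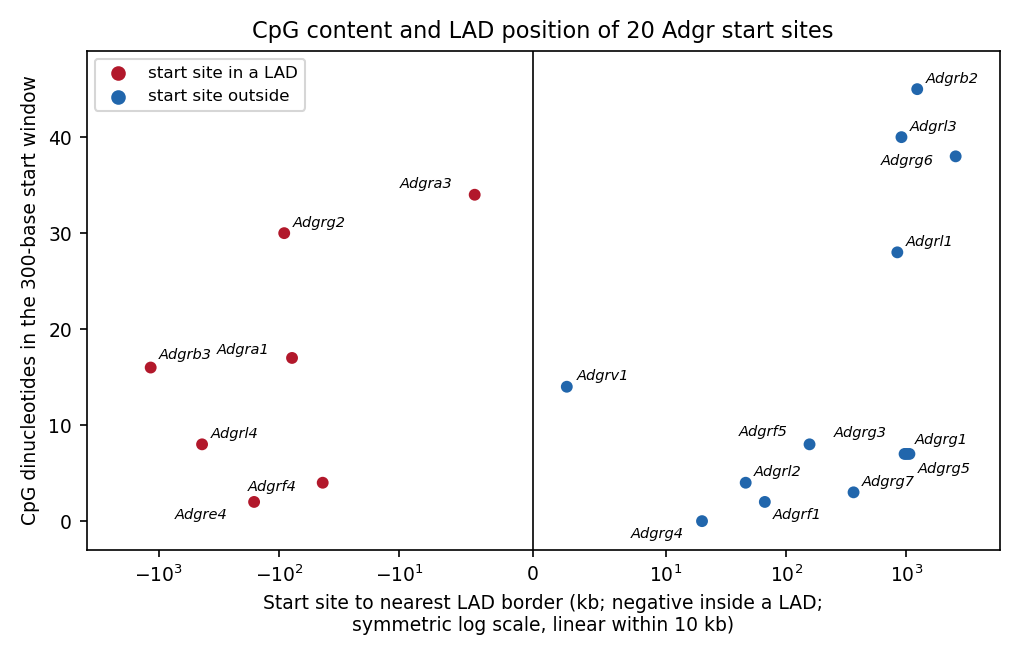
CpG dinucleotides in the 300-base start window (vertical axis) against the distance of the start site from the nearest LAD border in kb (horizontal axis, symmetric log scale, negative inside a LAD) for 20 Adgr genes, with red points for starts in LADs and blue points for starts outside. The red points run from 2 (Adgre4) to 34 (Adgra3) CpG dinucleotides, and the blue points from 0 (Adgrg4) to 45 (Adgrb2).

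Other genes of adhesion receptor signalling were counted by the same midpoint rule. Subfamily C, the Celsr receptors of planar cell polarity, is named outside the Adgr scheme in mouse. Of its 3 genes, named after their positions were seen, 0 touched a LAD, beside 25.1% of all protein-coding genes, with midpoints 594.4 kb (Celsr1), 1165 kb (Celsr2) and 309.2 kb (Celsr3) from a border. Of 29 ligands and partners, 9 were inside LADs (31.0%), again beside 23.8% of all protein-coding genes. Among them were Cd55, Flrt3, Nrxn3, Sftpd, Tenm1, Tenm2 and Tenm4. The other 20 were outside.

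Receptor and partner were set side by side where they are known to pair, a choice made after the positions had been seen. The latrophilin ligands Tenm1, Tenm2 and Tenm4 were inside, covered to 93.8%, 94.2% and 97.8%, and Tenm3 was outside with 32.6% covered, while Adgrl1, Adgrl2 and Adgrl3 were all outside. Cd55 lay in a LAD of 2225 kb and its receptor gene Adgre5 outside. Sftpd, a surfactant protein, was inside and Adgrf5 outside. Of 16 G protein alpha subunit genes, listed without regard to which receptors they serve, 2 (Gnai1 and Gnat3) were inside (12.5%), beside 23.8% of all protein-coding genes. Both were in the same LAD of 1525 kb on chromosome 5.

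Other receptor and adhesion families are given for scale, with no test of a difference, beside 23.8% of all protein-coding genes, 26.5% of those under 20 kb and 33.8% of those of at least 100 kb. Among 75 receptors named Gpr and a number, 11 were inside (14.7%), and their median gene length was 11.6 kb. For the frizzled class it was 1 of 11 (9.09%, Fzd10) at a median length of 4.81 kb. Among 23 cadherins named Cdh, 11 were inside (47.8%), at a median length of 147.7 kb.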

How the data were processed

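The deposited data used here are 1 list of LADs in BED format, made by the authors. Its values are start and end positions in base pairs. Per the submitters' processing notes, reads were aligned with Bowtie2 to mm10; the version, domain caller, threshold and use of IgG or spike-in are not given in the sources used here. The list's name says that it is merged, and which libraries entered it is not given there. The deposited score column was 0 in all 1437 lines. The smallest gap between LADs was 52499 bp.

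Genes were placed by the RefSeq table of GRCm38.p6 (mm10), with start sites and strands from the matching promoter sequences. Midpoint, cover and border distances were computed in Python 3.11.15 with pandas 2.3.3 and numpy 2.4.6, and figures drawn with matplotlib 3.10.9. The interval code was tested on simulated data. Every member is named. Full positions are given for members that overlap a LAD or have an end within 100 kb of one, and the 3 farthest are named. Genes of the other lists are named where inside a LAD, and some of these are not reported here. Members and lists were chosen with earlier results of these data known. No test was planned, because the list has no values per library. The planned search of receptor proteins for the cleavage site was not run, since no protein sequences were used here. Distances of 5, 10 and 25 kb to a border, single genes per domain, the count of LADs per gene and the CpG ratio of 0.6 were added after the positions had been seen.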

Additional observations from a re-analysis of the deposited data

How the results depend on the processing

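The midpoint count of 10 members depended most on how short LADs are treated. It was 6 for whole genes in a LAD and 4 with LADs of at least 500 kb, and members with any overlap went from 12 to 6 with that minimum, both by construction. The other 12 settings for the midpoint count, including 1 added after seeing the data, gave 7 to 12 (start and 3′ end over the 20 members with a window). Under the 6 settings that changed the list (minimum length of 100 or 500 kb, joining at 100 or 250 kb, borders moved by 25 kb inwards or outwards), 19 of 27 members kept their side, 4 of them inside (Adgrb3, Adgre1, Adgre4 and Adgrl4) and 15 outside. Adgra1, Adgrf2, Adgrf4, Adgrg2, Adgrg4 and Adgrv1 left under at least 1 of them, and Adgra3 and Adgrl2 entered with joining at 250 kb. Of 162 covers of single genes, 131 did not change.

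The share of all protein-coding genes in LADs, 23.8%, was 21.8% for whole genes, 25.1% for any overlap, 20.7% with LADs of at least 500 kb, 24.5% and 27.3% with joining at 100 and 250 kb, 22.1% and 25.8% with borders moved by 25 kb inwards and outwards, and 19.1% without Olfr and Vmn genes. With alternatives added after seeing the data it was 24.6% between the first and last LAD of each chromosome and 24.5% for genes with a start window. No paired analysis was possible because the list is merged and carries no replicate values, so a list without either Lamin B1 library could not be made. Read depth is unknown, so how far it limits short LADs such as those of Adgrf4 and Adgrg4 cannot be stated.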
